A study of Mus musculus with 9 samples.

Results

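Mucins are large glycoproteins whose serine- and threonine-rich stretches carry dense O-linked sugar chains. In the colon, goblet cells store the gel-forming mucin Muc2 in granules and secrete it to build the mucus layer. Membrane-bound mucins such as Muc13, Muc4, Muc1 and Muc20 span the apical membrane of epithelial cells, where they contribute to the glycocalyx and can take part in signalling.

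The mucin genes described here were Muc1, Muc2, Muc4, Muc13 and Muc20, matched by symbol, 5 of the 36256 genes in the table. Polyadenylated RNA from colon tissue of 9 C57BL/6 mice was profiled, with 3 mice in each of 3 groups. LRWE mice were given dextran sulfate sodium (DSS), a sulfated polysaccharide used to induce colitis by damaging the mucosa, over a 9-day modelling period together with an extract of Linderae Radix, a Lindera root drug, at 2.0 g/kg. MC mice received DSS over the same period without the extract, and NC mice were the controls. Strain and tissue were common to all groups, while the mice's ages, the colon segment and the pooling of tissue, if any, are not given in the sources used here. Replicates are separate libraries, named as 3 mice per group. The p-values weigh differences between groups against the spread between replicates, estimated over all 3 groups. The title of the study places the extract in the treatment of colitis, and the comparisons ask how mucin transcripts differed with DSS, with DSS and the extract, and between both DSS groups. All comparisons share libraries (MC in both LRWE vs MC and MC vs NC, NC in both comparisons with NC), so their values are given side by side and are not independent of one another.

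Library totals lay between 59042063 and 65042857 counts, and all 5 mucins passed the filter on low counts that left 21767 genes for testing. LRWE 2 had the lowest library quality weight, 0.247, followed by MC 2 with 0.385 and LRWE 1 with 0.494, against 1.15 to 2.29 in NC libraries. MC 1 and MC 3 had 1.39 and 1.18, and LRWE 3 had the highest weight, 2.87. Markers of colon regions moved with the groups. Summed CPM of 7 distal colon genes lay between 43.17 and 61.31 in LRWE, between 35.93 and 186.7 in MC and between 1175 and 1613 in NC. Hoxb13, a posterior Hox gene of the distal colon, had 1.79, 0 and 0.26 CPM in LRWE mice, 1.18, 61.2 and 9.70 CPM in MC mice, and 301.5, 352.1 and 248.0 CPM in NC mice. Among 8 proximal colon genes, 5 were called higher in LRWE vs NC and 4 in MC vs NC, beside 6.04% and 2.84% of all genes. Their summed CPM overlapped, at 3221 to 6043 in LRWE, 2602 to 2715 in MC and 2452 to 4029 in NC, and a member of the list, the carbonic anhydrase gene Car4, was lower on average in LRWE than in NC (849.1 CPM against 2669 CPM) without passing the test. The part of these regional differences in the mucin results below was not tested, and the colon region sampled cannot be told apart from the treatment with these data.

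The bases just before the annotated start are shown for the mucin that changed, Muc2, and for the most abundant one per length, Muc13. All 5 genes had an entry in the RefSeq promoter table (GRCm38.p6), with 6 windows of 300 bases between them, and the 250 bases before the start are shown for the only Muc2 window and for the upstream one of a pair of Muc13 windows. Capitals mark matches on either strand to TTTAT (CDX), TGANTCA (AP-1) and TTCNNNGAA (STAT).
Muc2, chr7:141690090-141690339, plus strand: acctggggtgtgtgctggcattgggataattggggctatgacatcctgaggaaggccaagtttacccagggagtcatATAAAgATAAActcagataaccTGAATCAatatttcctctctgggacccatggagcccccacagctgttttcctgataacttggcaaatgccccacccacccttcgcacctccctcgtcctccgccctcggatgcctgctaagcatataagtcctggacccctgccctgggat
Muc13, chr16:33793787-33794036, plus strand: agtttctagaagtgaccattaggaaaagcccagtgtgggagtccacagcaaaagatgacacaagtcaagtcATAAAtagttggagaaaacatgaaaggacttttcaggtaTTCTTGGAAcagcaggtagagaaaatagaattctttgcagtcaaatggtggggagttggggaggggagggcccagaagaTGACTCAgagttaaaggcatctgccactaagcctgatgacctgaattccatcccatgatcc

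The Muc2 window held 2 CDX matches, beginning at -173 and -167 from the start, 1 AP-1 match at -151 and no STAT match. The Muc13 window shown held 1 CDX match at -179, 1 STAT match at -140 and 1 AP-1 match at -61, while the other Muc13 window held 1 AP-1 match at -179 and no CDX or STAT match. Of 32851 promoter windows of the same length, 40.0% held the CDX letters, 8.30% the STAT letters and 7.81% the AP-1 letters. A match describes the sequence and is no evidence of binding.

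Muc2, the secreted gel-forming mucin of goblet cells, was the mucin with the clearest difference between groups. Its transcript (ENSMUSG00000025515, 7:141276583-141308430 in the deposited table, whose genome build is not named) had 2169, 2168 and 2571 CPM in LRWE mice, 1781, 783.6 and 1097 CPM in MC mice, and 514.2, 422.2 and 544.8 CPM in NC mice. A CPM value here is a count divided by the TMM-adjusted size of its library. Every LRWE mouse lay above every MC mouse, and every MC mouse above every NC mouse; such a separation upward was found for 14.5% of all genes in LRWE vs MC, 19.5% in MC vs NC and 16.6% in LRWE vs NC. Muc2 averaged 2303 ± 232.5 CPM in LRWE, 1220 ± 509.9 CPM in MC and 493.8 ± 63.8 CPM in NC (SD, n = 3 each), so the spread was widest in MC.

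Muc2 rose in MC relative to NC, by a log2 fold change of 1.31 ± 0.29 (SE; 95% interval 0.65 to 1.96; 2.47-fold; adjusted p = 0.0339, edgeR quasi-likelihood test with Benjamini-Hochberg adjustment). It rose in LRWE relative to NC by 2.22 ± 0.30 on the log2 scale (interval 1.54 to 2.90; 4.66-fold; edgeR adjusted p = 0.00523). In LRWE vs MC the log2 fold change was 0.92 ± 0.29 (interval 0.26 to 1.57), and the edgeR adjusted p of 0.164 missed the threshold of 0.05. Muc2 was thus the 1 mucin of 5 called in MC vs NC and in LRWE vs NC, where 6.37% and 10% of all genes were called (2.84% and 6.04% higher, 3.53% and 3.97% lower). None of the 5 was called in LRWE vs MC, where edgeR called 0% of genes (5139 or 23.6% had an unadjusted p under 0.05, Muc2 among them with 0.0113, while DESeq2 called 1747 and voom with library weights 2901).

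The call in LRWE vs NC was kept in all 9 fits that left out 1 library, at adjusted p of 0.00136 to 0.0382. The call in MC vs NC was kept without MC 2, LRWE 1 or LRWE 2 and lost without any of the others: the log2 fold change was 0.93 with MC 1 left out (edgeR adjusted p = 0.0855), 1.38 with MC 3 left out (0.0774), 1.31 with LRWE 3 left out (0.0574), and 1.33, 1.20 and 1.38 with NC 1, NC 2 and NC 3 left out (0.126, 0.148 and 0.0957). In LRWE vs MC, 2 other tools placed Muc2 past the threshold, DESeq2 at 0.88 (adjusted p = 0.0448) and limma-voom with library weights at 0.91 (adjusted p = 0.0414). The highest of these weights, 2.87, went to LRWE 3, the mouse with the most Muc2.

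**Figure D1:**
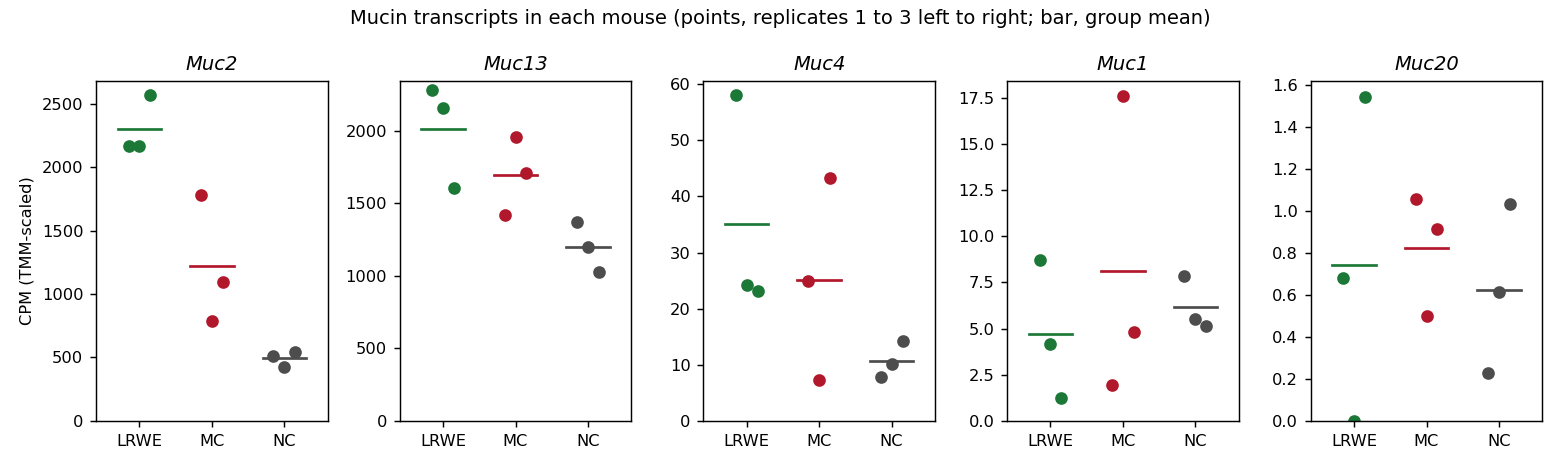
TMM-scaled CPM of each mucin in each mouse, with LRWE, MC and NC from left to right, points for mice (replicates 1 to 3 from left to right) and bars for group means; each axis is linear and starts at 0. Muc2 separates the groups without overlap, Muc13 separates both DSS groups from NC, and Muc1 and Muc20 overlap throughout. Over all genes, 14.5% separate upward in LRWE vs MC, 16.6% in LRWE vs NC and 19.5% in MC vs NC.

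Muc13, a membrane mucin with an EGF-like domain found over the surface of the intestinal epithelium, was the most abundant of the 5 per length. The gene (ENSMUSG00000022824) lies at 16:33614407-33640304 in the deposited table. It had 735.6, 562.7 and 477.0 FPKM in LRWE mice, 462.1, 720.7 and 516.6 FPKM in MC mice, and 392.1, 375.0 and 311.9 FPKM in NC mice. These levels ranked between 40 and 123 among all genes of a library, while Muc2 ranked between 233 and 1520.

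On the CPM scale Muc13 had 2281, 2155 and 1609 in LRWE mice, 1420, 1960 and 1707 in MC mice, and 1375, 1198 and 1026 in NC mice. Both DSS groups lay above every NC mouse, by a small margin in MC 1, and the DSS groups overlapped each other. Over all genes, 16.6% separated upward in LRWE vs NC and 19.5% in MC vs NC. The log2 fold change was 0.75 ± 0.22 in LRWE vs NC (interval 0.25 to 1.24, edgeR adjusted p = 0.0629), 0.25 ± 0.22 in LRWE vs MC (interval -0.24 to 0.74, 0.507) and 0.50 ± 0.22 in MC vs NC (interval 0.01 to 0.99, 0.201), with no call in any. Without MC 2 the adjusted p in LRWE vs NC was 0.0498 (log2 fold change 0.75), and it was 0.00632 in DESeq2 and 0.0394 with library weights. With libraries scaled to epithelial markers, the value was 0.33 and the adjusted p was 0.53.

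Muc4, a large membrane mucin that binds the receptor ERBB2, varied more between mice. The gene (ENSMUSG00000118672) lies at 16:32555015-32602754 in the deposited table. It had 58.0, 24.2 and 23.1 CPM in LRWE mice, 24.9, 7.35 and 43.3 CPM in MC mice, and 7.78, 10.2 and 14.2 CPM in NC mice. LRWE lay above NC without overlap, as did 16.6% of all genes, whereas the lowest MC mouse, MC 2, lay below every NC mouse. The log2 fold change was 1.71 ± 0.61 in LRWE vs NC (edgeR adjusted p = 0.107), 0.48 ± 0.59 in LRWE vs MC (0.646) and 1.23 ± 0.60 in MC vs NC (0.247). Without MC 2, whose spread enters the shared estimate, the LRWE vs NC value was 1.72 with an adjusted p of 0.0361. Without LRWE 1, the mouse with the most Muc4, the LRWE vs MC value was -0.09 (adjusted p = 0.937).

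Muc1, a membrane mucin widely expressed on glandular epithelia, showed the widest relative spread within the DSS groups of the mucins with counts in every library. The gene (ENSMUSG00000042784) lies at 3:89136364-89140688 in the deposited table. Muc1 had 8.72, 4.18 and 1.25 CPM in LRWE mice, 1.97, 17.6 and 4.83 CPM in MC mice, and 7.83, 5.49 and 5.13 CPM in NC mice. The MC and LRWE values spanned the whole NC range and beyond on both sides. The coefficient of variation was 79.8% in LRWE, 102% in MC and 23.9% in NC. No comparison passed: -0.38 ± 0.82 in LRWE vs NC (edgeR adjusted p = 0.815), -0.79 ± 0.82 in LRWE vs MC (0.586) and 0.40 ± 0.82 in MC vs NC (0.814), on the log2 scale. MC 2 decided the direction for MC, since without it MC vs NC was -0.85 (adjusted p = 0.569) and LRWE vs MC was 0.47 (0.801); without LRWE 3, LRWE vs NC was 0.07 (0.976).

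Muc20, a small membrane mucin known to interact with the receptor MET, was the least abundant of the 5 per length. Muc20 had 0.68, 0 and 1.54 CPM in LRWE mice, 1.06, 0.50 and 0.91 CPM in MC mice, and 0.23, 0.62 and 1.03 CPM in NC mice. These values rest on 13 to 95 counts where any was found, and the 0 in LRWE 2 allows up to 0.0467 CPM of its total, for counting error alone. The 95% interval of the LRWE vs NC log2 fold change ran from -2.61 to 3.11 and covered differences in both directions (adjusted p 0.883 to 0.958 over the comparisons, edgeR). Without LRWE 2, the library at 0, the LRWE vs NC value was 0.83 with an SE of 0.73, against 0.25 with an SE of 1.26, and its adjusted p was 0.529; LRWE vs MC was 0.43 (adjusted p = 0.815). The Muc20 locus (ENSMUSG00000035638, 16:32597793-32617805) on the minus strand overlaps that of Muc4 on the plus strand by 4962 bases in the deposited coordinates, and whether the counting used strand is not stated, so some Muc20 counts may be Muc4 reads.

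**Figure D2:**
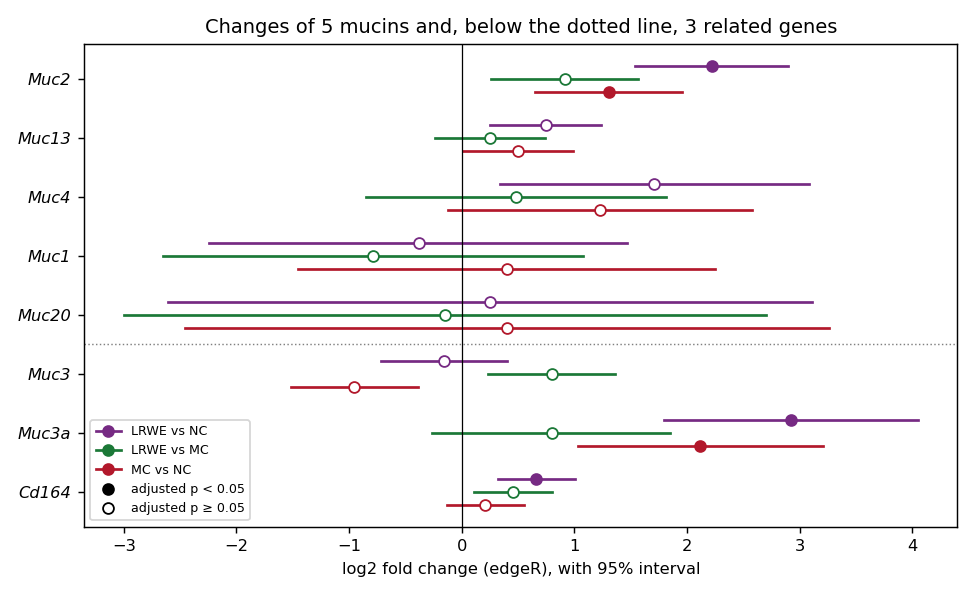
Log2 fold changes from edgeR with 95% intervals for the 5 mucins and, below the dotted line, Muc3, Muc3a and Cd164; filled points had an adjusted p under 0.05. Muc2 and Muc3a were called in LRWE vs NC and MC vs NC, Cd164 in LRWE vs NC, and no gene was called in LRWE vs MC.

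The make-up of the transcripts of these 5 mucins also differed, on the FPKM scale and as a description without a test. Other mucins are outside this sum, so the shares are not those of all mucin transcripts. Among them, Muc3 averaged 190.4, 123.2 and 218.1 FPKM in LRWE, MC and NC, and Muc3a 250.2, 159.4 and 34.2 FPKM. The 5 mucins summed to 896.6, 689.2 and 645.8 FPKM in LRWE mice, 591.7, 792.7 and 594.3 FPKM in MC mice, and 427.6, 407.0 and 351.3 FPKM in NC mice. Muc2 made up 17.0%, 17.9% and 25.8% of this sum in LRWE mice, 21.4%, 7.93% and 12.2% in MC mice, and 7.49%, 7.09% and 10.3% in NC mice. LRWE and NC did not overlap in either quantity, whereas MC 2 fell within the NC range for the share of Muc2 and MC 1 within that of LRWE. Muc13 formed most of the rest, from 73.9% of the sum in LRWE 3 to 92.1% in NC 2, and Muc4, Muc1 and Muc20 each stayed at or under 1.05%. The mean log2 sum in LRWE minus that in MC was 0.17, and it was -0.39 when the sum was divided by that of 10 epithelial marker genes.

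**Figure D3:**
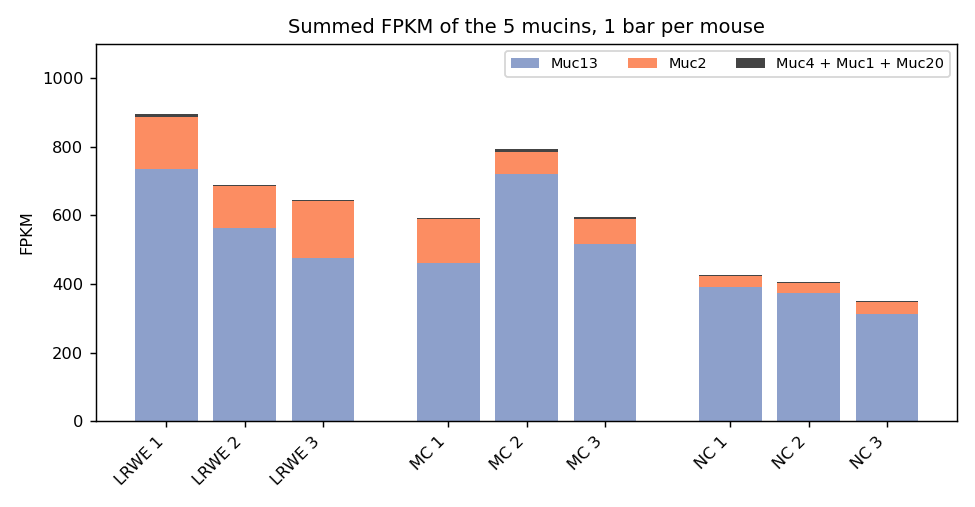
Summed FPKM of the 5 mucins, 1 bar per mouse, with LRWE, MC and NC from left to right and colours for Muc13, Muc2 and the remaining 3. The sum lies at 645.8 to 896.6 in LRWE, 591.7 to 792.7 in MC and 351.3 to 427.6 in NC, and the Muc2 segment is largest in LRWE mice and in MC 1.

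Muc2 was set beside genes of the cells that make it. In bulk tissue, fewer cells of a type and less RNA per cell cannot be told apart. Of 14 goblet cell markers, a list without Muc2, 1 was called higher and 1 lower in LRWE vs NC, beside 6.04% and 3.97% of all genes. None was called in LRWE vs MC. In MC vs NC, 2 were called lower and none higher, beside 3.53% and 2.84% of all genes. The markers' median log2 fold change in MC vs NC was -0.91, beside -0.01 over all genes. Their summed CPM ranged from 3805 to 4840 in LRWE, from 2395 to 4433 in MC and from 4657 to 5876 in NC, so Muc2 was higher in MC mice whose goblet marker sums lay below those of NC. The sum is weighted to abundant members, and these did not all separate the groups. Zg16 had 1144, 2449 and 1570 CPM in MC mice against 1794, 1481 and 2175 CPM in NC mice. Zg16 and Fcgbp overlapped between MC and NC, while Klk1 and Clca1 were lower in every MC mouse than in NC. Klk1, a tissue kallikrein that heads the list by size of change, had 198.8, 273.3 and 230.7 CPM in LRWE mice, 190.1, 112.3 and 93.3 CPM in MC mice, and 976.8, 955.4 and 939.9 CPM in NC mice. Klk1 fell in both DSS groups, by a log2 fold change of -2.03 ± 0.27 in LRWE vs NC (edgeR adjusted p = 0.00485) and -2.86 ± 0.28 in MC vs NC (0.0029). The marker called higher in LRWE vs NC was the potassium channel gene Kcnk6 (1.36 ± 0.25, 0.0134; lost without any NC library, up to 0.0601).

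Scaling libraries to the summed goblet markers gave a Muc2 log2 fold change of 2.53 in LRWE vs NC (edgeR adjusted p = 0.0184), 0.30 in LRWE vs MC (0.753) and 2.22 in MC vs NC (0.0146). This scaling moved the median of all genes to 0.230 in LRWE vs NC, -0.536 in LRWE vs MC and 0.788 in MC vs NC. It also placed Muc13 (1.25, adjusted p = 0.0276) and Muc4 (2.18, 0.0396) past the threshold in MC vs NC. Of 21767 genes, 4254 were called in MC vs NC under this scaling, 4047 of them higher and 207 lower. In LRWE vs NC it called 786, with 527 higher and 259 lower. The scaling was chosen after seeing the data. Relative to the goblet marker sum, then, Muc2 was called higher in both comparisons with NC and not in LRWE vs MC.

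Epithelial markers were set beside the mucins in the same way. Of 10, 2 were called higher in LRWE vs NC (Elf3 and Tspan8), beside 6.04% of all genes. None was called in LRWE vs MC or in MC vs NC, beside 0% and 6.37% of all genes. Summed CPM of the 10 markers ranged from 10720 to 16090 in LRWE, from 5569 to 10200 in MC and from 7743 to 10410 in NC. Krt8, a keratin of simple epithelia and the most abundant of them, had 3399, 5468 and 3928 CPM in LRWE mice, against 2377, 1581 and 3267 CPM in MC mice, without overlap and without passing the test (0.82 ± 0.31, edgeR adjusted p = 0.176). An upward separation of this kind was found for 14.5% of all genes in LRWE vs MC. Smooth muscle markers summed to 2710 to 7209 CPM in LRWE, 7079 to 12690 in MC and 9192 to 13540 in NC. With libraries scaled to the epithelial markers, Muc2 was 1.78 in LRWE vs NC (adjusted p = 0.0204), 0.20 in LRWE vs MC (0.66) and 1.57 in MC vs NC (0.0412), all log2 fold changes from edgeR, while the median of all genes moved to -0.480, -0.805 and 0.326. Muc13 in LRWE vs MC became -0.55 (adjusted p = 0.212). Under TMM scaling the LRWE vs MC values had been 0.92 for Muc2 and 0.25 for Muc13.

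**Figure D4:**
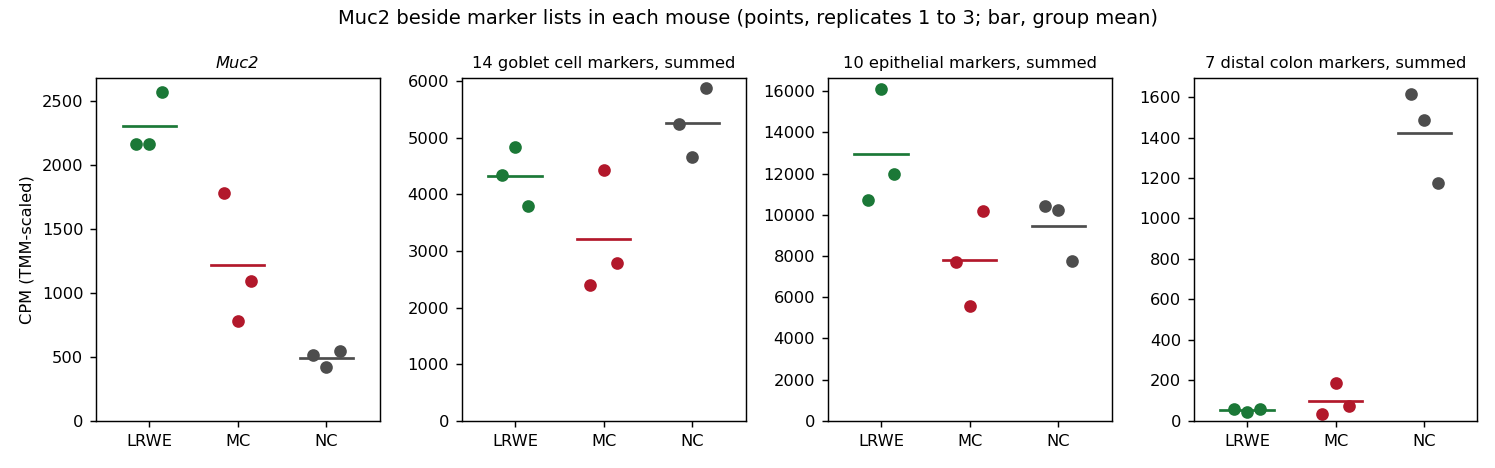
TMM-scaled CPM of Muc2 and summed CPM of 14 goblet cell, 10 epithelial and 7 distal colon markers in each mouse, with LRWE, MC and NC from left to right and bars for group means. Muc2 is lowest in NC, where distal colon marker sums (1175 to 1613) are above those of every other mouse; goblet cell marker sums are 3805 to 4840 in LRWE, 2395 to 4433 in MC and 4657 to 5876 in NC.

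Among 17 further mucins and mucin-like genes, 13 were in the table and 7 were tested. Muc3a and Muc3, membrane mucin genes of the intestine, gave unlike values. Muc3a had 465.6, 578.9 and 556.5 CPM in LRWE mice, 502.3, 106.2 and 312.1 CPM in MC mice, and 54.2, 62.4 and 94.8 CPM in NC mice. It rose in LRWE vs NC by 2.92 ± 0.50 (edgeR adjusted p = 0.011) and in MC vs NC by 2.12 ± 0.48 (0.036) on the log2 scale, while LRWE vs MC was 0.80 ± 0.47 (0.318). Muc3 had 2939, 2974 and 3179 CPM in LRWE mice, 1660, 1575 and 2003 CPM in MC mice, and 3813, 4085 and 2260 CPM in NC mice.

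MC mice lay below all others for Muc3, and no comparison passed in edgeR with all libraries: -0.16 ± 0.25 in LRWE vs NC (edgeR adjusted p = 0.739), 0.80 ± 0.25 in LRWE vs MC (0.164) and -0.96 ± 0.25 in MC vs NC (0.0566). MC vs NC passed without NC 3 (-1.18, 0.0338) or LRWE 2 (-0.96, 0.0383), and both LRWE vs MC (0.036 and 0.0442) and MC vs NC (0.00311 and 0.00937) passed in DESeq2 and with library weights. Reads that fit both paralogues could have been split between them, so their levels are uncertain. The call of Muc3a in MC vs NC was lost without NC 1, NC 2, NC 3, MC 1, MC 3 or LRWE 3 (adjusted p up to 0.149), and that in LRWE vs NC without NC 1 or NC 2 (up to 0.0634). Cd164, a sialomucin, was called higher in LRWE vs NC (322.0 CPM against 203.3 CPM on average, log2 fold change 0.66 ± 0.15, edgeR adjusted p = 0.0292), a call lost without any NC library, LRWE 2 or LRWE 3 (up to 0.118). Muc5ac, a gel-forming mucin of the stomach and airways, had 0 counts in all 9 libraries.

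Mucins work through their sugar chains, which Golgi enzymes start, extend and cap. GalNAc transferases attach the first sugar. Of 18 tested, 4 were called higher and 1 lower in LRWE vs NC, and none was called in LRWE vs MC. In MC vs NC, 1 was called higher and 1 lower. Shares over all genes were 6.04% higher and 3.97% lower in LRWE vs NC, and 2.84% and 3.53% in MC vs NC. The medians of the 18 were 0.66, -0.14 and 0.52 in LRWE vs NC, LRWE vs MC and MC vs NC. Beside them stand -0.05, -0.03 and -0.01 over all genes. Galnt12 had 75.5, 87.7 and 72.3 CPM in LRWE mice, 45.3, 23.8 and 58.5 CPM in MC mice, and 19.8, 20.5 and 22.5 CPM in NC mice, and rose in LRWE vs NC by 1.91 ± 0.29 on the log2 scale (edgeR adjusted p = 0.00693). Galnt1 rose in LRWE vs NC by 0.82 ± 0.12 (0.00645) and in MC vs NC by 0.54 ± 0.12 (0.0339). Galnt15 fell in the same comparisons, by a log2 fold change of -2.12 ± 0.30 (0.00608) and -1.22 ± 0.30 (0.0451). Both MC vs NC calls were lost when any NC or MC library or LRWE 3 was left out (adjusted p up to 0.168), while the LRWE vs NC calls of Galnt12, Galnt1 and Galnt15 were kept in all 9 such fits.

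Enzymes and transporters that extend, sulfate and cap the chains changed in both directions. Of 37 tested, 7 were called higher and 10 lower in LRWE vs NC, and none was called in LRWE vs MC. In MC vs NC, 1 was called higher and 8 lower. Shares over all genes were 6.04% higher and 3.97% lower in LRWE vs NC, and 2.84% and 3.53% in MC vs NC. The medians of the 37 were -0.03, 0.34 and -0.29, beside -0.05, -0.03 and -0.01 over all genes. Slc26a2, a sulfate transporter that feeds mucin sulfation, had 271.4, 362.0 and 342.6 CPM in LRWE mice, 175.9, 223.7 and 221.6 CPM in MC mice, and 730.6, 876.3 and 807.7 CPM in NC mice. It fell in LRWE vs NC by 1.31 and in MC vs NC by 1.96 on the log2 scale, with adjusted p of 0.00524 and 0.00213 in edgeR. Gcnt1, a core 2 branching enzyme, fell by 1.79 and by 1.94 (0.00523 and 0.00521), and Fut4, a fucosyltransferase, by 2.67 and by 2.71 (0.00485 and 0.00564), in the same order of comparisons. St3gal1, which caps core 1 chains with sialic acid, rose by 2.66 and 2.78 (0.0052 and 0.00548). These 8 calls were kept in all fits without 1 library.

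Other branching enzymes than Gcnt1, and the core 3 enzyme, were called higher in LRWE vs NC. Gcnt3, the enzyme of core 2 and core 4 branches in mucus-secreting tissue, had 247.2, 471.5 and 497.8 CPM in LRWE mice, 234.9, 29.8 and 126.5 CPM in MC mice, and 28.9, 25.2 and 27.9 CPM in NC mice. Its log2 fold change was 3.89 ± 0.65 in LRWE vs NC (edgeR adjusted p = 0.0104) and 2.26 ± 0.61 in MC vs NC (0.0614; 2.73 with an adjusted p of 0.00558 without MC 2, and 0.0469 without LRWE 2). B3gnt6, the core 3 synthase, rose in LRWE vs NC by 3.06 on the log2 scale (0.0286), and B4galnt2, which adds the terminal sugar of the Sda antigen, by 3.35 (0.00676). B4galnt2 also counts among the 7 distal colon genes, of which it was the 1 called higher. B3gnt7, an enzyme of keratan sulfate chains, was called lower by -4.80 (0.0308). Of these, B4galnt2 kept its call in all 9 fits without 1 library, whereas Gcnt3 lost it without any NC library (adjusted p up to 0.0602), and B3gnt6 (up to 0.111) and B3gnt7 (up to 0.0875) without any NC library, LRWE 2 or LRWE 3. Gcnt3, B3gnt6 and B3gnt7 were chosen for naming after their values were seen.

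**Figure D5:**
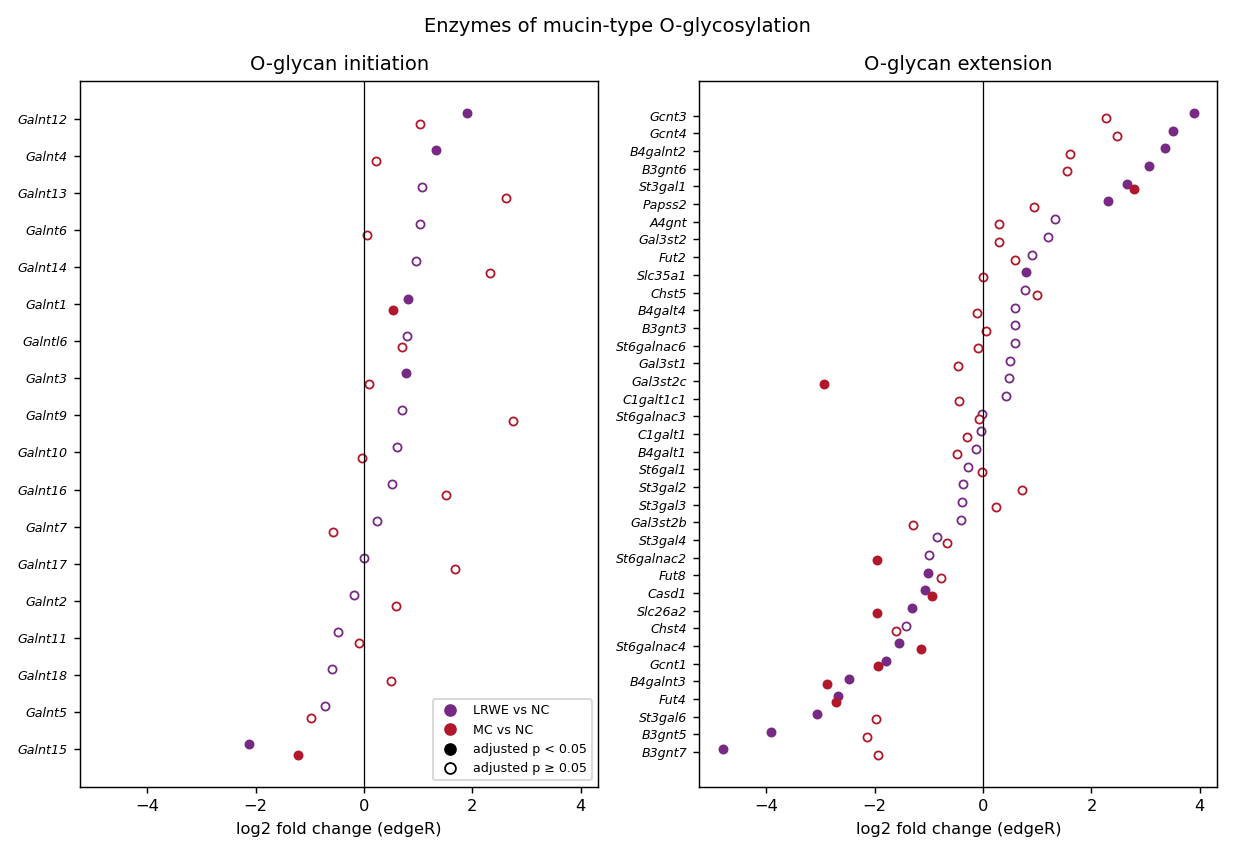
Log2 fold changes from edgeR of 18 enzymes that start O-linked chains (left panel) and 37 genes that extend, sulfate or cap them (right panel), for LRWE vs NC and MC vs NC; filled points had an adjusted p under 0.05. In LRWE vs NC, 4 and 7 genes of the panels were called higher and 1 and 10 lower. Over all genes, the shares there were 6.04% higher and 3.97% lower.

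Genes for granule formation and for the mucus gel were called in both directions, and the list shares members such as Agr2, Clca1 and Tff3 with the goblet cell markers. Of 24 tested, 1 was called higher and 5 lower in LRWE vs NC, none in LRWE vs MC, and 1 higher and 5 lower in MC vs NC; the medians were -0.21, 0.41 and -0.88, beside -0.05, -0.03 and -0.01 over all genes. Over all genes, 6.04% were called higher and 3.97% lower in LRWE vs NC, and 2.84% and 3.53% in MC vs NC. The gene called higher in both was Retnlb, a goblet cell product with antibacterial activity, with 85.8, 19.2 and 15.04 CPM in LRWE mice, 4.78, 23.3 and 44.5 CPM in MC mice, and 0.33, 0.22 and 1.51 CPM in NC mice. Its log2 fold change was 5.86 ± 1.18 in LRWE vs NC (edgeR adjusted p = 0.0193; lost without NC 1 or NC 2, up to 0.0872) and 5.14 ± 1.15 in MC vs NC (0.034; lost without MC 2, MC 3 or any NC library, up to 0.141). Other members were called lower. Best2, a bicarbonate channel of colonic goblet cells, fell in LRWE vs NC by 1.63 and in MC vs NC by 2.47 on the log2 scale (edgeR adjusted p = 0.0088 and 0.00428). Creb3l1, a transcription factor that responds to endoplasmic reticulum stress, fell by 1.04 and 1.39 (0.0135 and 0.00713), the first being lost without any NC library (up to 0.0636). Agr2, the disulfide isomerase needed to fold Muc2, had 110.7, 125.4 and 163.5 CPM in LRWE mice, 93.7, 75.7 and 110.9 CPM in MC mice, and 210.8, 171.9 and 207.4 CPM in NC mice. Agr2 was called lower in MC vs NC (-1.07 ± 0.20, edgeR adjusted p = 0.0189; lost without MC 1 or any NC library, up to 0.0809).

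A pair of abundant goblet cell products did not pass the test with all libraries. Clca1, a mucus-processing metalloprotease, averaged 387.0 CPM in MC against 1051 CPM in NC (log2 fold change -1.44 ± 0.38, edgeR adjusted p = 0.0564), and Tff3, a trefoil peptide, 170.7 CPM against 315.7 CPM (-0.89 ± 0.23, 0.0557). Without MC 2 both passed, Clca1 at -2.07 (0.00303) and Tff3 at -1.16 (0.0145), as they did without LRWE 2, in DESeq2 and with library weights. Both were chosen for naming after their values were seen. Tgm3, a transglutaminase that cross-links mucus, had 17.7, 1.57 and 0.60 CPM in LRWE mice, 15.98, 422.0 and 31.8 CPM in MC mice, and 3308, 3584 and 2599 CPM in NC mice. It was called lower in LRWE vs NC (-8.90 ± 1.86, edgeR adjusted p = 0.0218; lost without any NC library, LRWE 2 or LRWE 3, up to 0.0658).

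Of 14 transcription factors linked to goblet cell and intestinal fate, 2 were called higher and 1 lower in LRWE vs NC. None was called in LRWE vs MC, and 1 was called higher and 2 lower in MC vs NC. Over all genes the shares were 6.04% higher and 3.97% lower in LRWE vs NC, and 2.84% and 3.53% in MC vs NC. Cdx2, a homeobox factor of the intestine that can activate Muc2, had 235.2, 395.1 and 308.8 CPM in LRWE mice, 166.1, 38.2 and 192.0 CPM in MC mice, and 18.9, 30.1 and 21.2 CPM in NC mice. Cdx2 rose in LRWE vs NC by 3.74 ± 0.55 on the log2 scale (edgeR adjusted p = 0.00664) and in MC vs NC by 2.50 ± 0.53 (0.0277). The MC vs NC call was lost without MC 1, MC 3 or any NC library (up to 0.126). Foxa2, a forkhead factor with roles in goblet cells, fell in LRWE vs NC by 3.17 and in MC vs NC by 2.87 (0.00862 and 0.0149), the second call being lost without MC 1 or any NC library (up to 0.0693). Elf3, an epithelial ETS factor, rose in LRWE vs NC by 1.32 ± 0.21 (0.00866).

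Of 13 tested cytokines, receptors and factors known to induce mucins, none was called in LRWE vs NC or LRWE vs MC. Over all genes, 10% and 0% were called in these comparisons. In MC vs NC, 2 were called higher and none lower, beside 2.84% and 3.53% of all genes. The medians of the 13 were 0.44, -0.72 and 1.25 in LRWE vs NC, LRWE vs MC and MC vs NC. Over all genes the medians were -0.05, -0.03 and -0.01. Il4ra, the shared receptor chain for IL-4 and IL-13, had 80.5, 48.3 and 46.9 CPM in LRWE mice, 86.8, 90.4 and 78.2 CPM in MC mice, and 29.8, 26.1 and 41.1 CPM in NC mice. It rose in MC vs NC by 1.40 ± 0.25 on the log2 scale (edgeR adjusted p = 0.0161; lost without MC 1, NC 1 or NC 2, up to 0.0958). Stat3, which carries signals of the IL-22 and IL-6 receptors to the nucleus, rose by 1.25 ± 0.31 (0.0488), a call lost when any NC or MC library or LRWE 3 was left out (up to 0.161).

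MC 2 stood apart from the other MC mice across these genes. It had the lowest Muc2, Muc4 and Muc20, and the highest Muc13 and Muc1, of the MC mice. Its Gcnt3 (29.8 CPM) and Cdx2 (38.2 CPM) were close to the NC range, and its Hoxb13 (61.2 CPM), Tgm3 (422.0 CPM) and B3gnt7 (116.5 CPM) lay between those of NC and the other MC mice. Without MC 2, Muc2 in MC vs NC was 1.55 on the log2 scale, the highest of the 9 fits without 1 library.

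Genes whose pattern over the 9 libraries was most like that of each mucin were found by the root mean square difference of centred log2 CPM among 13839 genes. For Muc2 these were Slc51b, a subunit of a bile acid transporter, at 0.202, Pon2, a paraoxonase, at 0.226, and Mfap3l at 0.246. Slc51b had 77.2, 112.0 and 91.2 CPM in LRWE mice, 63.5, 31.4 and 56.7 CPM in MC mice, and 17.8 to 20.6 CPM in NC mice. A group order like that of Muc2 follows from picking genes by this pattern and is no separate result. For Muc13 they were Slc49a4 (0.129), Pfkp, a phosphofructokinase (0.132), and Plekhm1 (0.136), and for Muc4 Fam13a (0.405), Anxa9 (0.446) and Tmem174 (0.453). For Muc1 they were Lilrb4b (0.394), the VEGF receptor gene Flt1 (0.463) and the hypoxia factor gene Hif1a (0.467), all highest in MC 2. The closest gene to Muc20 was Cfap44 (0.446), which shared with it a value of 0 in LRWE 2.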

How the data were processed

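Poly(A) RNA of 9 colon libraries was analysed from 1 deposited table. Per the file headers, the authors deposited FPKM and counts per gene. The deposited counts are whole numbers, handled as an expected count per gene, and no source states how the authors made them. Tools listed in the submitters' processing notes are edgeR, StringTie 1.3.4d, HISAT2 2.0.4 and cutadapt 1.9. The notes name a human genome build for mouse identifiers, so coordinates of genes are those of the table with no build.

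Genes were kept by filterByExpr, libraries scaled by TMM, and a mean per group fitted to all 9 libraries with edgeR 4.0.16 (R 4.3.3, quasi-likelihood test, Benjamini-Hochberg adjustment over 21767 genes, threshold 0.05). The median SE of a log2 fold change was 0.413 to 0.415. The SE was derived from edgeR's F statistic. FPKM, which compare genes per length, were tested in limma 3.58.1 with a pseudocount of 1 (or 0.1) as an alternative; DESeq2 1.42.0 was another. Counting limits treat reads as molecules, which holds only in part without molecular identifiers.

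The mucins and gene lists were chosen with earlier results of these data known. Named genes were the 5 mucins and, of each list, up to 4 called members, or the 2 most abundant where fewer than 2 were called, shortened where a list is described by counts. Nearest genes were sought among genes with a mean of at least 1 CPM, leaving out predicted loci and pseudogenes. All 18 columns of values were used.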

Additional observations from a re-analysis of the deposited data

How the results depend on the processing

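With the replicate numbers as a block (deviations of same-numbered libraries correlated at -0.162 to 0.0313, so the numbers were not taken as pairs), Muc2 in MC vs NC was 1.26 (adjusted p = 0.0769), Muc20 in LRWE vs NC was -0.33, and 306 genes were called in MC vs NC and 600 in LRWE vs NC, against 1386 and 2179 without it. Muc2 in LRWE vs NC was called in all 12 alternatives and all 9 fits without 1 library (1.78 to 2.53). Genes called in LRWE vs NC, LRWE vs MC and MC vs NC numbered 734, 0 and 424 with epithelial scaling; 786, 0 and 4254 with goblet scaling, a scaling chosen after seeing the data; 4430, 1747 and 3722 in DESeq2; and 6142, 2901 and 5205 with library weights. In MC vs NC they numbered 2374 on log2(FPKM + 1) and 3781 with 2 groups in the fit, and in LRWE vs MC 1 on log2(FPKM + 0.1). Without 1 library they ranged from 459 to 2725, from 0 to 2436 (without LRWE 1) and from 281 to 3318. Epithelial scaling turned the split of calls in LRWE vs NC to 275 higher and 459 lower, against 1314 and 865, and in MC vs NC to 309 and 115, against 618 and 768; goblet scaling gave 4047 and 207, and library totals 783 and 539, in MC vs NC.

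Of the 5 mucins, past the threshold only in an alternative were Muc2 in LRWE vs MC (0.88 in DESeq2, 0.91 with library weights), Muc4 in LRWE vs NC (1.71 in DESeq2, 1.72 with 2 groups, 1.38 with weights), Muc13 in LRWE vs NC (0.74 in DESeq2, 0.51 with weights), and Muc4 (2.18) and Muc13 (1.25) in MC vs NC with goblet scaling. Of the other named genes, Muc3 in MC vs NC and LRWE vs MC, and Clca1, Tff3, Gcnt3 and Hoxb13 in MC vs NC, likewise passed in some alternatives only. Reversed, none past the threshold, were Muc1 in MC vs NC (-0.68 with weights), Muc4 in LRWE vs MC (-0.17 with goblet scaling), Muc13 in LRWE vs MC (-0.55 and -0.24 with epithelial and goblet scaling), Muc20 in LRWE vs MC (0.16 with weights) and in LRWE vs NC (-0.16 with epithelial scaling, -0.01 on log2(FPKM + 0.1)), Muc3 in LRWE vs NC (0.10 with goblet scaling), and the summed FPKM in LRWE vs MC (-0.39 per epithelial marker). Without 1 library, log2 fold changes in LRWE vs NC, LRWE vs MC and MC vs NC ranged from 2.06 to 2.30, 0.68 to 1.29 and 0.93 to 1.55 for Muc2; 0.64 to 0.88, 0.13 to 0.38 and 0.39 to 0.61 for Muc13; 1.14 to 1.96, -0.09 to 1.12 and 0.59 to 1.68 for Muc4; -1.19 to 0.07, -1.59 to 0.47 and -0.85 to 0.87 for Muc1; and -0.86 to 0.83, -1.26 to 0.43 and 0.00 to 0.96 for Muc20. The causes of these shifts were not tested. Muc20 rests on at most 95 counts in a library, and with 3 mice per group the intervals of Muc4, Muc1 and Muc20 are wide.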

Other observations

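Partners and other cells of the mucosa were listed beside the mucins. Of 11 receptors and partners of mucins, among them Erbb2, Erbb3 and Met, none was called in MC vs NC or LRWE vs MC, and 1 was called in LRWE vs NC: the kinase gene Src, at 96.4 CPM in LRWE against 59.4 CPM in NC on average (log2 fold change 0.70 ± 0.17, edgeR adjusted p = 0.035; lost without any NC library, MC 1, MC 3, LRWE 2 or LRWE 3, up to 0.133). Of 12 colonocyte markers, 6 were called higher and 2 lower in LRWE vs NC, and 1 higher and 2 lower in MC vs NC. Of 9 tested deep crypt and stem cell markers, 2 were called lower in LRWE vs NC and 3 in MC vs NC. Their medians were -1.57 and -1.18, beside -0.05 and -0.01 over all genes. For each count of this paragraph, the shares over all genes were 6.04% higher and 3.97% lower in LRWE vs NC. In MC vs NC they were 2.84% and 3.53%.

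Markers of cells outside the epithelium were listed as well. Summed fibroblast markers ranged from 213.8 to 664.0 CPM in LRWE, from 611.8 to 1706 in MC and from 1135 to 1656 in NC, and leukocyte markers from 53.6 to 106.6, from 69.2 to 228.3 and from 156.1 to 416.6 CPM in the same order. In LRWE vs NC, 2 of 8 fibroblast, 1 of 10 smooth muscle, 1 of 8 endothelial and 1 of 12 leukocyte markers were called lower, and 1 of 8 plasma cell markers was called higher and 2 lower, beside 6.04% and 3.97% of all genes. Of 6 tested squamous markers 1 was called higher in both comparisons with NC, where 6.04% (LRWE) and 2.84% (MC) of all genes were. The 1 tested exocrine pancreas gene, Cela1, was called lower in both. It had 307.5, 278.8 and 213.8 CPM in NC mice. The other matched genes of the pancreas list had at most 0.598 CPM in any library, so Cela1 alone is no measure of pancreas tissue here. No member of any list was called in LRWE vs MC by edgeR with all libraries. Muc2 and Muc3 passed there in DESeq2 and with library weights, which called 1747 and 2901 genes. Only named genes were followed in these alternatives.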
